A study of Mus musculus with 6 samples.

Results

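The genes described here are 35 cell cycle and proliferation genes of the mouse, chosen by name: 3 G1 cyclins (Ccnd1, Ccnd2, Ccne1), 10 genes of S phase and 22 genes of G2 and mitosis. A gene entered through probe sets that the array's annotation assigns to that gene alone, and each gene is represented by its brightest probe set, judged by mean log2 intensity. In all, 34 of the 35 genes had such a probe set, out of 18193 genes and 45101 probe sets. Ccnb1, the major B-type mitotic cyclin, had none and was not analysed. The 34 genes carried 88 probe sets between them.

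RNA came from hand-dissected aortic roots, that is valve leaflets, annulus and some ascending aorta, of klotho-deficient and wild-type mice. The klotho-deficient mice were homozygous for the mutant klotho allele and the wild-type mice homozygous for the normal one, all on the C57BL/6J albino strain and aged 6.0 to 6.5 weeks. Each array held RNA pooled from 3 mice, and each genotype had 3 arrays and so 9 mice. The comparison asks which transcripts differ in the root when klotho, a co-receptor for the hormone FGF23, is deficient in the whole animal. The labels do not say which mutant allele was used. The labels name neither the sex of the mice nor the hour of dissection. Pools are the replicates here, so every p-value measures the spread between pools and not between single mice.

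Dividing cells pass from G1 through DNA synthesis (S phase) and G2 into mitosis. D-type cyclins bring growth signals to the kinases that inactivate the retinoblastoma protein, which frees E2F factors to switch on the genes of DNA replication. Genes of mitosis are switched on later, by separate factors that read CCAAT boxes and CHR elements (cell cycle genes homology regions), together with the factor FOXM1. Transcripts of the later group are nearly limited to cycling cells, while replication and D-cyclin transcripts are also found in cells at rest. Most cells of the valve and the arterial wall are at rest once the vessel has formed.

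The deposited values were linear intensities from 0.1 to 131884.9, scaled to a mean of 1500 on every array after trimming 2% at each end. Probe sets for Bacillus transcripts, 27 in number and without a mouse target, gave a highest signal of 161.8, which is used as the background level. Markers of smooth muscle, fibroblasts, endothelium and heart muscle were above it on every array (5 of 5, 7 of 7, 5 of 5 and 7 of 7 genes). Klotho transcript (Kl) gave 138.3, 217.4 and 189.1 on the klotho-deficient arrays and 166.7, 184.7 and 202.1 on the wild-type arrays, near background in both, so it does not check the genotype labels. Klotho-deficient replicates 2 and 3 lacked Y-linked transcripts (mean log2 intensity 4.64 and 4.35, against 10.52 to 11.17 on the other 4 arrays). By this mark the sex of the pooled mice was not balanced between the genotypes. Xist, the transcript of X inactivation, read 26303.6, 36290.2 and 19873.8 on the klotho-deficient arrays and 22337.6, 20770.3 and 20581.7 on the wild-type arrays. It was high on all 6 arrays, so the 4 with Y-linked transcripts cannot be read as pools of males alone. Gapdh controls placed at the 3′ and 5′ ends of the transcript gave a ratio of 7.18 on wild-type replicate 3, against 3.23 to 4.08 elsewhere. The same ratio for beta-actin controls was 1.1 on that array, against 1.07 to 1.18 elsewhere. Of the 34 genes, 31 had a mean above background and 26 were above it on all 6 arrays; the 10 S phase genes were above it on every array, and 14 of 21 mitotic genes were.

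No cell cycle gene passed the test between the genotypes. With limma's moderated test and Benjamini-Hochberg adjustment over all 18193 genes, 0 of 34 members had an adjusted p under 0.05, and 0% of all genes did. The smallest adjusted p among the members was 0.731, for Bub1b. At an unadjusted limma p under 0.05, 1 member was higher in klotho-deficient roots (Bub1b; 3.25% of all genes were higher by this measure) and 1 was lower (Ccnd1; 3.16% of all genes). Arrays of the genotypes did not overlap for 2 members in the higher direction (Bub1b and Bub1; 6.63% of all genes) and for 1 in the lower direction (Ccnd1; 6.84% of all genes). These shares lie near the background shares.

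A difference is the klotho-deficient mean less the wild-type mean in log2 intensity, with limma's SE. Such differences lay below 0 for 18 of 34 members, while 49.6% of all genes lay below 0. Their median was -0.03 over all 34 members, -0.04 over the 10 S phase genes, 0.06 over the 21 mitotic genes and -0.78 over the 3 G1 cyclins, against 0.00 over all genes. The G1 cyclin median was -0.28 without klotho-deficient replicate 2 and -0.37 with the mean of all probe sets. For 33 of 34 members, Bub1b being the exception, leaving out some single array moved the difference by more than 1.5 times or turned its sign. Small differences meet this rule easily: without wild-type replicate 1, Mcm6 met it by moving from -0.03 to -0.05. The count was not made over all genes, so it does not set the members apart. Bub1b was the exception by its brightest probe set only, as its others gave -0.13 and -0.66. A difference smaller than 0.5 in size was found for 28 of 34 members (82.4%), against 77% of all genes and 87.7% of genes with a mean above background. Among those 28 members were all 10 S phase genes and 17 of 21 mitotic genes. The mitotic exceptions were Foxm1, Bub1b and Cenpe on the higher side and Plk1 on the lower. RNA of a whole root cannot tell fewer cycling cells from less transcript in each.

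**Figure D1:**
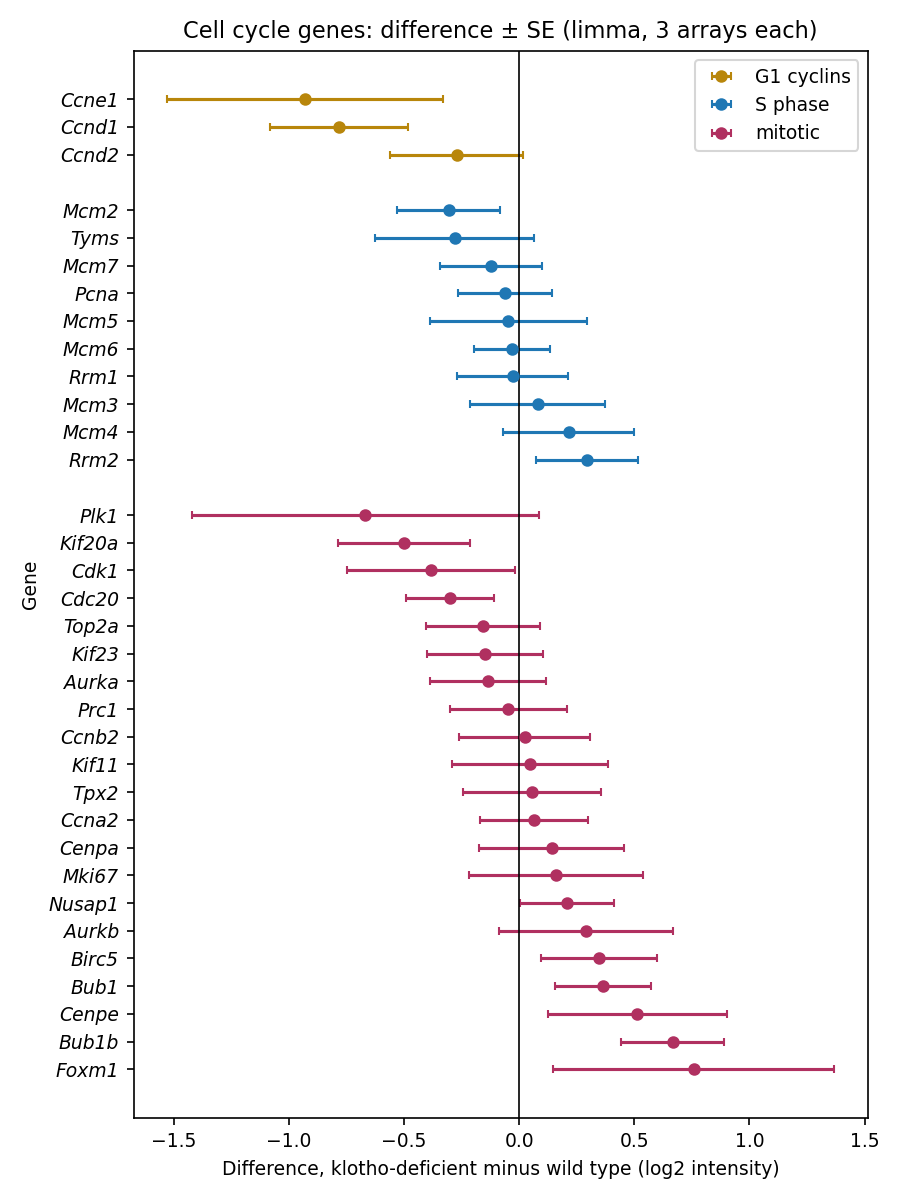
Difference between klotho-deficient and wild-type aortic roots in log2 intensity (horizontal axis) for each of the 34 cell cycle genes (vertical axis), with bars of ± 1 SE from limma over 3 arrays per genotype; colours mark the G1 cyclins, S phase genes and mitotic genes. S phase genes lie between -0.31 and 0.29, and mitotic genes spread from -0.67 to 0.76 on both sides of 0.

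Ccnd1, cyclin D1, the D-type cyclin through which many growth factors act, read lower in klotho-deficient roots with every probe set, without passing the adjusted test. Its brightest probe set read 3185.6, 3325.4 and 4323.7 on the klotho-deficient arrays and 5338.9, 4803.8 and 9105.7 on the wild-type arrays. All 3 klotho-deficient arrays lay below all 3 wild-type arrays, and wild-type replicate 3 stood well above the rest. The means were 3612 ± 621 and 6416 ± 2345 (SD, n = 3). The difference was -0.78 ± 0.30, a ratio of geometric means of 1.72-fold in favour of wild type, with limma p-values of 0.0391 unadjusted and 0.763 adjusted. Without wild-type replicate 3 the difference was -0.50 ± 0.22, and with a covariate for the arrays without Y-linked transcripts it was -0.95 ± 0.45. All arrays without those transcripts were klotho-deficient. Here and below, that covariate therefore leaves klotho-deficient replicate 1 as the only klotho-deficient array set against wild type. Wild-type replicate 3 also had the highest summed endothelial markers, 40380. Wild-type replicates 1 and 2 had 22200 and 23110, and the klotho-deficient pools 20600 to 24190. Among the wild-type arrays 5 of 5 of these markers were highest on replicate 3. That array also had the high Gapdh ratio given above, though not a high beta-actin ratio. The part of the endothelial markers and of the Gapdh ratio in the Ccnd1 value was not tested.

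The other Ccnd1 probe sets gave smaller differences of the same sign. The next brightest read 1796.7, 3119.8 and 2459.5 against 3481.3, 3326.7 and 3810.9, a difference of -0.56 ± 0.25. The dimmest read 728.1, 833.4 and 690.3 against 991.8, 949.0 and 1114.9, a difference of -0.44 ± 0.19. All 3 probe sets separated the genotypes without overlap. They measure the same RNA, so they repeat the measurement of Ccnd1 and add no replicate of the mice. In a limma fit over probe sets, none of the 3 passed the adjusted threshold (adjusted p = 0.835 for each).

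Ccnd2, cyclin D2, is the sister gene of Ccnd1 with the same kinase partners. Its brightest probe set read 7741.8, 8387.2 and 14288.1 on the klotho-deficient arrays and 11313.2, 13719.8 and 10510.5 on the wild-type arrays, a difference of -0.27 ± 0.29 (limma adjusted p = 0.886). Klotho-deficient replicate 3 was above every wild-type array, and the groups overlapped. All 7 Ccnd2 probe sets had lower means in klotho-deficient roots, from -0.53 to -0.26, and in all 7 klotho-deficient replicate 3 was the highest klotho-deficient array. Just 1 of the 7 separated the genotypes, with 3854.9, 3420.4 and 5169.8 against 5518.0, 5872.4 and 6101.1. With each array left out in turn the difference of the brightest probe set ranged from -0.55 ± 0.20 without klotho-deficient replicate 3 to -0.10 ± 0.31 without klotho-deficient replicate 1. It was -0.16 without either klotho-deficient replicate 2 or wild-type replicate 2, and -0.60 ± 0.40 with a covariate for the arrays without Y-linked transcripts.

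**Figure D2:**
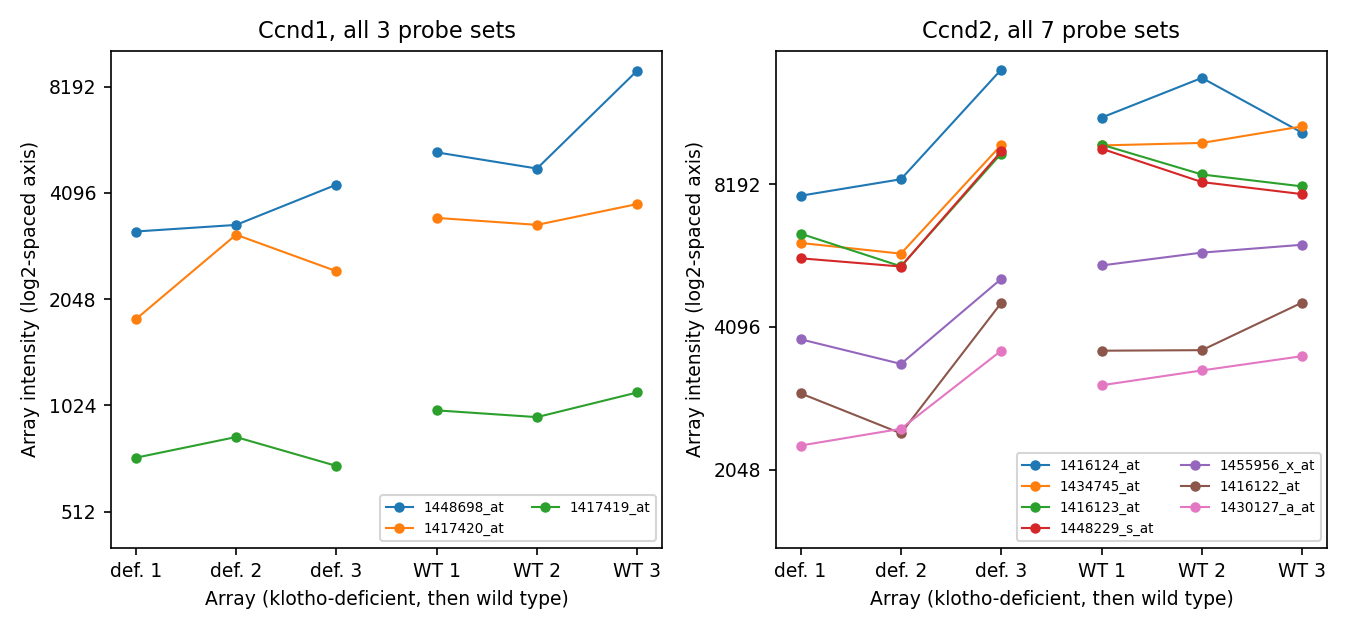
Intensity (vertical axis, log2-spaced) of every probe set of Ccnd1 (left) and Ccnd2 (right) on each of the 6 arrays (horizontal axis; def. is klotho-deficient, WT wild type); lines join the readings of a probe set within a genotype and show no order of the replicates. The 3 Ccnd1 probe sets lie lower on all klotho-deficient arrays, whereas the 7 Ccnd2 probe sets rise on klotho-deficient replicate 3 to near or into the wild-type range.

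Ccne1, cyclin E1, drives entry into S phase with CDK2. It read 622.4, 120.2 and 349.5 in klotho-deficient and 581.8, 684.9 and 453.0 in wild-type roots, which differed by -0.93 ± 0.60 (limma adjusted p = 0.826). The value rests on klotho-deficient replicate 2, which lay below background; without that array the difference was -0.28 ± 0.35, and with a covariate for the arrays without Y-linked transcripts it was 0.14 ± 0.64. The second Ccne1 probe set went the other way, with 361.3, 456.9 and 399.2 against 315.5, 283.4 and 371.3 and a difference of 0.33 ± 0.20. The median of -0.78 over the G1 cyclins thus rests on a pair of D cyclins whose probe sets agree in sign and on 1 gene whose probe sets do not.

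S phase genes showed the smallest differences of the 3 groups: 7 were below 0 and 3 above, from -0.31 (Mcm2) to 0.29 (Rrm2), and none separated the genotypes. Promoters of this group are shown first, because most of them held a match to the element through which E2F acts. Windows of 300 bases around the start site, from 250 before it to 50 after it, came from RefSeq (GRCm38.p6) and were found for 27 of the 35 genes, with 29 windows. They were searched on both strands for E2F sites (TTCCCGC and its variants TTGGCGC, also TTCGCGC, and finally TTGCCGC), for the CHR element (TTTGAA), the CCAAT box (CCAAT) and the Sp1 box (GGGCGG). Some of these letters can share bases: a reversed CCAAT box (ATTGG) with TTGGCGC, the site TTCCCGC with a reversed Sp1 box, and the E2F forms with one another. The 10 S phase windows came from 9 genes, as Mcm7 had 2 and Mcm4 none. The 18 mitotic windows came from 17 genes, as Prc1 had 2 that overlap. An E2F site was present in 7 of 10 S phase windows (70%), against 3 of 18 mitotic windows (16.7%) and 13.6% of the 18109 windows of all genes on the arrays. Counted by gene it was present in 6 of 9 (66.7%), 3 of 17 (17.6%) and 16% of all genes with a window. A CCAAT box was present in 9 of 10 S phase windows (90%; 37.4% of all), and both together in 7 of 10 (70%; 5.32% of all).

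The 150 bases before the start site are printed 5′ to 3′ for Mcm6 (chr1:128359706-128359855, minus strand), Mcm7 (chr5:138171267-138171416, minus strand, 1 of its 2 windows) and Rrm1 (chr7:102441545-102441694, plus strand), as examples with both elements; E2F sites and CCAAT boxes on either strand are in capitals. A match is a description of the letters and not a measured binding site.
Mcm6: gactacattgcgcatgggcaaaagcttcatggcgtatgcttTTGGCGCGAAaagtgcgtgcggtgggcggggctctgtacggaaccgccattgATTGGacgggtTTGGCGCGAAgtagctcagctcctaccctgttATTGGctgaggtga
Mcm7: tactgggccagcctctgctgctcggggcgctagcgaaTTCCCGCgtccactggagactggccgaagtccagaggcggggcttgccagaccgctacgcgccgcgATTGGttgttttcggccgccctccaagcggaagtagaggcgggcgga
Rrm1: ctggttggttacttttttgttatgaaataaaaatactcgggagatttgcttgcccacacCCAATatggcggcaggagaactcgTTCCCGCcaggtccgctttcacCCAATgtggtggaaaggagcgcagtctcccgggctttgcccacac

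The Mcm genes encode the subunits of the ring-shaped helicase that unwinds DNA at replication forks. Mcm6 had the smallest SE of the 34 members, with 14093.7, 13966.5 and 16094.8 in klotho-deficient and 14602.9, 15059.8 and 15375.0 in wild-type roots. The groups overlapped throughout, at means of 14720 ± 1194 and 15010 ± 388 (SD, n = 3) and a difference of -0.03 ± 0.16. These readings come from a probe set ending in _x_at, a form explained below. The next brightest Mcm6 probe set, at 1695.9 to 2724.2, gave -0.10 ± 0.24. The dimmest, above background on 1 array, gave -1.05 ± 0.52. Mcm7 read 3328.6, 2830.7 and 3470.1 against 3525.6, 2795.3 and 4269.3, a difference of -0.12 ± 0.22, and its other 3 probe sets gave -0.05, -0.06 and -0.14. Mcm2 had the lowest difference of the group, -0.31 ± 0.22, with klotho-deficient replicate 1 lowest at 371.6 and wild-type replicate 3 highest at 676.7, and the other 4 arrays between 499.1 and 522.0. The Mcm2 difference was -0.16 without that klotho-deficient array, -0.17 without that wild-type array and -0.60 ± 0.30 with a covariate for the arrays without Y-linked transcripts. Both genotypes thus overlapped for Mcm2 and Mcm7 as well. Mcm3, Mcm4 and Mcm5 gave 0.08 ± 0.29, 0.22 ± 0.28 and -0.05 ± 0.34. Mcm3 and Mcm4 were both highest on klotho-deficient replicate 3, at 2170.6 and 6809.8, beyond every other array. Dimmer probe sets of Mcm3 and Mcm5 separated the genotypes, in opposite directions. The dimmest of the 5 for Mcm3 read 285.6, 357.7 and 307.5 against 182.1, 269.1 and 51.2, the last of these below background, while the other 4 overlapped. The dimmest of the 3 for Mcm5 read 39.6, 71.2 and 61.2 against 117.4, 124.1 and 131.5, below background on all arrays.

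Pcna, the sliding clamp of the DNA polymerases, read 8978.2, 9554.0 and 9023.4 against 8843.7, 8255.4 and 12032.3, a difference of -0.06 ± 0.21. The klotho-deficient arrays lay close together, and wild-type replicate 3 was the highest of all. Rrm1 and Rrm2 encode the large and the small subunit of ribonucleotide reductase, which makes the building blocks of DNA. Rrm1 read 5377.9, 4839.0 and 6650.6 against 5451.2, 4651.2 and 7236.1, with a difference of -0.03 ± 0.24. Rrm2, the subunit that is made mainly in S phase, read 1041.9, 1435.9 and 1234.0 against 1137.0, 1070.4 and 821.5, a difference of 0.29 ± 0.22 (limma adjusted p = 0.845). Its second probe set gave -0.28 ± 0.29, so the sign depends on the probe set. Tyms, thymidylate synthase, gave -0.28 ± 0.34, with 366.5, 528.8 and 229.4 against 523.2, 361.3 and 421.2. For each of the 10 S phase genes the range within either genotype was wider than the difference between the genotype means, which held for 70% of all genes.

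In the mitotic promoters the pair of CHR element and CCAAT box was counted. A CHR element was present in 13 of 18 mitotic windows (72.2%), against 1 of 10 S phase windows (Mcm2) and 13.4% of all windows on the arrays. Each of those 13 windows also held a CCAAT box, so the pair was present in 72.2% of mitotic and 5.23% of all windows. Counted by gene, with the overlapping Prc1 windows as 1, the pair was present in 12 of 17 (70.6%), against 6.21% of all genes with a window. Sp1 boxes were common everywhere, in 83.3% of mitotic, 80% of S phase and 52.3% of all windows. The 3 mitotic windows with an E2F site were those of Ccnb1, Cdk1 and Mki67.

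The 150 bases before the start site are printed for Mki67 (chr7:135716380-135716529, minus strand), Cdk1 (chr10:69352913-69353062, minus strand), Top2a (chr11:99024190-99024339, minus strand), Kif11 (chr19:37376232-37376381, plus strand) and Cdc20 (chr4:118437344-118437493, minus strand). They were chosen because the pair lies wholly before the start site; CHR elements and CCAAT boxes on either strand are in capitals, and E2F sites are left in lower case.
Mki67: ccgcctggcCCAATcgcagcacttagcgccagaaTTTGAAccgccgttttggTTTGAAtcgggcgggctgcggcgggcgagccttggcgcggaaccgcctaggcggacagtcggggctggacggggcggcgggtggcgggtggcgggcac
Cdk1: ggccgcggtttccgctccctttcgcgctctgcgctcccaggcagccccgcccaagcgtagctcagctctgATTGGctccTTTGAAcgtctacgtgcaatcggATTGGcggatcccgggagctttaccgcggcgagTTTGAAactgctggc
Top2a: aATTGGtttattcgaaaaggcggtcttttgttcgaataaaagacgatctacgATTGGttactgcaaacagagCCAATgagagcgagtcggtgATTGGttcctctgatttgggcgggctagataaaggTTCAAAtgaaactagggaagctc
Kif11: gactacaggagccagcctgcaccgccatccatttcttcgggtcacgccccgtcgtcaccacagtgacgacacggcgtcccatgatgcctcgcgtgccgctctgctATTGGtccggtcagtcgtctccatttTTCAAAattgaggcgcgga
Cdc20: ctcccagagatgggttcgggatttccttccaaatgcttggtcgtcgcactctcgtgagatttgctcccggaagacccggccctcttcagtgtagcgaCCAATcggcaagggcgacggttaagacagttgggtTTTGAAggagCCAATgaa

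**Figure D3:**
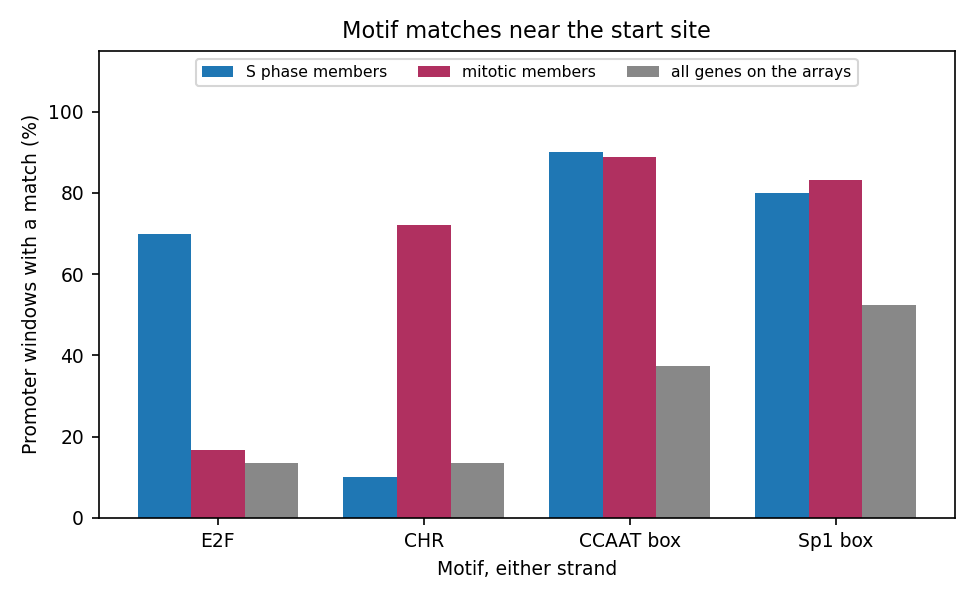
Share of promoter windows (vertical axis, percent) with at least 1 match on either strand to each of 4 motifs (horizontal axis), for S phase members (10 windows), mitotic members (18 windows) and all genes on the arrays (18109 windows). E2F sites stand at 70% in S phase windows, CHR elements at 72.2% in mitotic windows, and CCAAT boxes are frequent in both groups.

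Mki67 encodes the Ki-67 protein that coats mitotic chromosomes and is the usual marker of proliferation. It read 2546.2, 3625.6 and 1787.5 in klotho-deficient and 3328.8, 2244.9 and 1586.7 in wild-type roots. The arrays of the genotypes interleaved, with the highest 2 readings from different genotypes and the lowest 2 likewise. The difference was 0.16 ± 0.38 (limma adjusted p = 0.953), smaller than the spread within either genotype, and it was -0.10 when either klotho-deficient replicate 2 or wild-type replicate 3 was left out. Top2a, the topoisomerase that untangles chromosomes, read 510.5, 627.8 and 365.2 against 604.6, 495.8 and 540.7, a difference of -0.16 ± 0.25. Foxm1, the transcription factor of the G2 programme, was dim, with 244.4, 370.5 and 188.4 against 204.5, 61.1 and 281.5. Its difference of 0.76 ± 0.61 was 0.10 ± 0.37 without wild-type replicate 2, the array on which it lay below background.

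The engine of mitotic entry is the kinase CDK1 with its cyclins. Cdk1 read 302.2, 697.6 and 477.9 against 787.9, 471.8 and 598.4, a difference of -0.38 ± 0.37 (limma adjusted p = 0.876), which was -0.07 ± 0.33 without klotho-deficient replicate 1 and -1.0 ± 0.41 with a covariate for the arrays without Y-linked transcripts. Ccna2, cyclin A2, read 888.9, 983.8 and 765.6 against 912.9, 643.1 and 996.5, a difference of 0.06 ± 0.24. Ccnb2, cyclin B2, read 644.8, 553.2 and 336.0 against 522.9, 430.2 and 506.1, a difference of 0.02 ± 0.28. The genotypes overlapped for all 3 genes.

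Among the mitotic kinases, Plk1, which acts at centrosomes and kinetochores, was near background, with 148.4, 248.2 and 35.3 against 193.9, 108.6 and 247.4. Its difference of -0.67 ± 0.75 turned to 0.15 ± 0.45 without klotho-deficient replicate 3. Aurka, the centrosomal Aurora kinase, gave -0.14 ± 0.25 from its brighter probe set, with 200.1, 277.3 and 353.3 against 279.2, 290.6 and 320.9. The dimmer Aurka probe set read 200.8, 206.6 and 176.2 against 125.2, 23.8 and 62.4, without overlap (limma adjusted p = 0.797 over probe sets). The wild-type readings of that probe set all lay below the background level of 161.8, so the size of its difference is not measured. Aurkb and Birc5, the kinase of the chromosomal passenger complex and its partner survivin, gave 0.29 ± 0.38 and 0.35 ± 0.25. Tpx2, which activates Aurora A on the spindle, gave 0.06 ± 0.30.

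Bub1b and Bub1, genes of the checkpoint that holds mitosis until chromosomes are attached, were the 2 mitotic members whose genotypes did not overlap. Bub1b, which encodes the checkpoint protein BubR1, read 259.6, 330.4 and 307.7 in klotho-deficient and 153.7, 184.8 and 231.9 in wild-type roots. The reading of 153.7, on wild-type replicate 1, lay below background. Every klotho-deficient array lay above every wild-type array, at means of 299 ± 36.2 and 190 ± 39.4 (SD, n = 3), and a difference of 0.67 ± 0.22, or 1.59-fold between geometric means. The limma p-value was 0.0239 before and 0.731 after adjustment. With the covariate for Y-linked transcripts, which leaves klotho-deficient replicate 1 alone against wild type, the Bub1b difference was 0.47 ± 0.33. Its other probe sets gave -0.13 ± 0.36 and -0.66 ± 0.74, the last of them below background on all arrays. Bub1, the partner kinase, read 147.0, 154.9 and 125.6 against 124.3, 120.5 and 89.5, also without overlap, at 0.36 ± 0.21. None of those Bub1 readings exceeded the background level of 161.8. Cdc20, the activator of the ubiquitin ligase that the checkpoint restrains, went the other way by sign, at -0.30 ± 0.19, with overlap.

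The remaining mitotic genes build the centromere, the spindle and the midbody. Cenpa, the centromeric histone, gave 0.14 ± 0.31 and Cenpe, a kinetochore motor, 0.51 ± 0.39. The Cenpe readings of 148.9 and 155.2 on wild-type replicates 2 and 3 lay below background, and its second probe set gave 0.15 ± 0.37. Kif11, the motor that pushes spindle poles apart, read 521.1, 686.3 and 325.6 against 617.1, 387.2 and 441.6, a difference of 0.05 ± 0.34. Kif20a and Kif23, motors of cytokinesis, gave -0.50 ± 0.29 and -0.15 ± 0.25. For Kif20a the readings were 711.2, 839.3 and 477.5 against 1155.0, 767.0 and 909.3, and the genotypes overlapped. Prc1, which bundles microtubules of the midzone, gave -0.05 ± 0.25, and Nusap1, a spindle-associated protein, 0.21 ± 0.20.

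Probe sets of the same gene often disagreed. Of the 27 members with more than 1 probe set, the differences of all probe sets had the same sign in 14 and mixed signs in 13. Mixed signs were found for 1 of 3 G1 cyclins, 4 S phase genes and 8 mitotic genes. Of the 54 probe sets that were not the brightest of their gene, 3 separated the genotypes in the higher direction (of Aurka, Foxm1 and Mcm3). In the lower direction 4 did so (a pair of Ccnd1 and those of Ccnd2 and Mcm5). By their brightest probe sets, 6.63% of all genes separated in the higher and 6.84% in the lower direction. The Foxm1 probe set just named was below background on all arrays. Many of the extra probe sets are dim, as with the third Rrm1 probe set at 2.5 to 21.3. In 11 of the 34 members the chosen probe set ends in _s_at or _x_at, names that Affymetrix gives to probe sets whose probes can also match other transcripts. Ccne1, Cdc20, Foxm1, Mcm4, Mcm5, Mcm6 and Rrm2 are those with the _x_at form.

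In most mitotic genes, pools of the same genotype lay further apart than the genotype means. This pattern was seen after the values were known, concerns single pools, and is given without a test. Among the klotho-deficient arrays, replicate 2 read higher than replicate 3 for 20 of 21 mitotic genes (52.5% of all genes), with a median difference of 0.64 on the log2 scale, or 1.56-fold. Aurka was the exception. Replicate 2 was also the highest klotho-deficient array for 17 of 21 (38.1% of all genes), and replicate 3 the lowest for 16 of 21 (36%). Among the wild-type arrays, replicate 1 read higher than replicate 2 for 17 of 21 mitotic genes (49% of all genes), with a median difference of 0.49, or 1.41-fold, and was the highest wild-type array for 12 (28.8% of all genes). Both orders held together for 17 of 21 (27.9% of all genes). The range within each genotype exceeded the difference between the genotype means for 18 of 21 mitotic genes (70% of all genes).

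The same counts were made for the S phase genes, with no test of a difference from the mitotic genes. Klotho-deficient replicate 2 read higher than replicate 3 for 4 of 10 of them (52.5% of all genes), with a median difference of -0.25, and replicate 3 was the highest klotho-deficient array for 6 of 10 (37.4% of all genes). Wild-type replicate 1 was above replicate 2 for 7 of 10 (49% of all genes), with a median difference of 0.09, the same direction as in the mitotic genes. Median deviations from each gene's mean were 0.11, 0.37 and -0.24 on klotho-deficient replicates 1 to 3 and 0.17, -0.18 and 0.00 on the wild-type replicates for mitotic genes. For S phase genes they were -0.09, -0.04 and 0.14, and 0.01, -0.08 and 0.13. Mcm2, Pcna, Rrm2 and Tyms were the 4 S phase genes whose highest klotho-deficient reading was on replicate 2, and the other 6 had it on replicate 3.

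**Figure D4:**
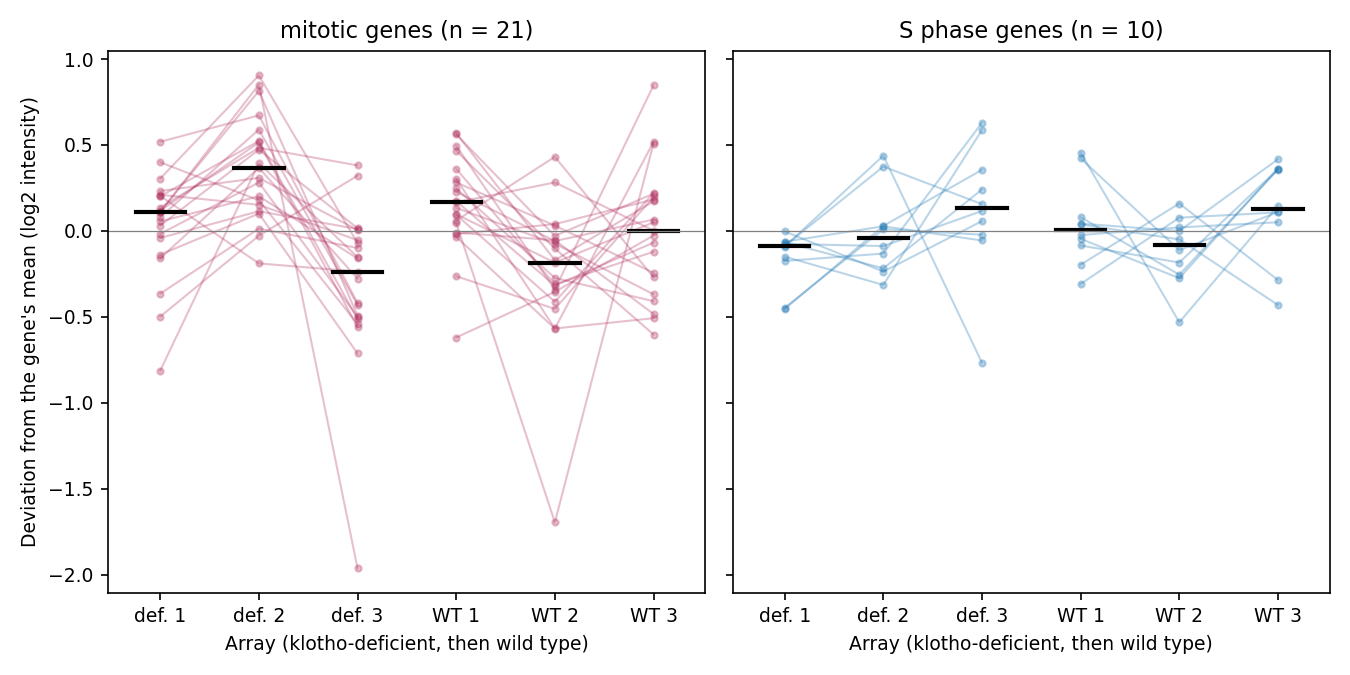
Deviation of each gene from its own mean over the 6 arrays (vertical axis, log2 intensity) on every array (horizontal axis; def. is klotho-deficient, WT wild type), for 21 mitotic genes (left) and 10 S phase genes (right); thin lines join the readings of a gene within a genotype and black bars are medians. Mitotic medians run from 0.37 on klotho-deficient replicate 2 to -0.24 on replicate 3, and S phase medians stay between -0.09 and 0.14.

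The order of the pools was also counted in other readings of the same genes. Among other mitotic probe sets that were above background on all arrays, klotho-deficient replicate 2 exceeded replicate 3 in 6 of 6. Wild-type replicate 1 exceeded replicate 2 in 5 of 6. For all genes above background on all arrays the shares were 44.5% and 48.8%. Among other mitotic probe sets with a mean above background the counts were 7 of 9 and 6 of 9. Over all 25 other mitotic probe sets, dim ones included, the counts were 15 and 16, closer to the shares over all genes. After quantile normalization the 20 of 21 mitotic genes became 15 of 21, and after median centring 19 of 21; the 17 of 21 for the wild-type pair stayed at 17 under both. With the mean of all probe sets of a gene the counts were 17 and 18 of 21. Klotho-deficient replicates 2 and 3 both lacked Y-linked transcripts, so they do not differ by that mark.

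Markers of other cell types and reference genes also differed between these pools. Commonly used reference genes were higher on klotho-deficient replicate 2 than 3 for 5 of 6 and on wild-type replicate 1 than 2 for 5 of 6, with median differences of 0.13 and 0.10. Summed heart muscle markers were 71130, 105800 and 72440 on the klotho-deficient arrays, higher on replicate 2 than 3 for 7 of 7 genes, but 64290 and 91530 on wild-type replicates 1 and 2, higher on replicate 1 for 1 of 7. Summed fibroblast markers were 243900, 247300 and 197600 and, in wild type, 242200, 222300 and 222700, with 5 of 7 higher on klotho-deficient replicate 2 than 3 and 6 of 7 higher on wild-type replicate 1 than 2. Smooth muscle markers were higher on klotho-deficient replicate 2 than 3 for 3 of 5 and on wild-type replicate 1 than 2 for 5 of 5. Endothelial markers were higher for 1 of 5 and 2 of 5 in the same pairs. Over all genes the shares for these pairs were 52.5% and 49%. Summed macrophage markers were 36580, 48150 and 42650, and 41610, 33670 and 50380 in wild type, with 2 of 6 higher on klotho-deficient replicate 2 than 3 and 5 of 6 higher on wild-type replicate 1 than 2. Summed chondrocyte markers were 3828, 10690 and 19720, and 4181, 5633 and 3771 in wild type, so klotho-deficient replicate 3, the lowest in most mitotic genes, was highest. Markers of T cells and thymocytes, the thymus being a fast-dividing organ close to the root, summed to 1334, 2046 and 1194, and 1870, 2003 and 1844 in wild type. Of these markers 10 of 12 were higher on klotho-deficient replicate 2 than 3, and 7 of 12 on wild-type replicate 1 than 2. Of those 12, 1 was above background on all arrays, and the T cell receptor component Cd3e was above it on none (21.6 to 113.2). B cell markers had 0 of 5 means above background, erythroid markers 2 of 6 and granulocyte markers 1 of 6. The part of these cell types in the order of the pools was not tested.

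Genes around the members in the same pathways gave no call either. Measured were 23 of 23 listed genes of G1 and E2F control, 40 of 43 of DNA replication and 55 of 56 of G2 and mitosis, and 0 of each had a limma adjusted p under 0.05. Before adjustment, limma p-values under 0.05 numbered 1 in the higher and 0 in the lower direction for G1 and E2F control, 1 and 0 for replication, and 1 and 1 for G2 and mitosis, where 3.25% of all genes were higher and 3.16% lower by this measure. Arrays of the genotypes did not overlap for 2 genes in the higher and 3 in the lower direction of the 23 in G1 and E2F control, 3 and 0 of the 40 in replication, and 1 and 1 of the 55 in G2 and mitosis, against 6.63% and 6.84% of all genes. The medians of the lists were 0.01, 0.00 and 0.09. Tfdp2, a partner of E2F factors, read 3985.4, 2921.2 and 3629.2 against 2628.1, 2518.6 and 1944.7, a difference of 0.57 ± 0.22. Gins2, a subunit of the replicative helicase complex around the Mcm ring, read 797.4, 1042.1 and 773.7 against 531.9, 688.1 and 497.6, a difference of 0.61 ± 0.22. Both are among the genes without overlap just counted.

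In the list for G2 and mitosis, Cdc25b, the phosphatase that activates CDK1, read 1539.1, 1058.9 and 1552.7 in klotho-deficient and 746.4, 814.2 and 842.0 in wild-type roots. The difference was 0.77 ± 0.22, or 1.70-fold between geometric means, without overlap (limma adjusted p = 0.67). Anln, anillin of the cleavage furrow, read 3746.0, 2634.8 and 2737.3 against 4716.2, 5864.8 and 4061.1, a difference of -0.69 ± 0.24 without overlap (limma adjusted p = 0.746). In the list for G1 and E2F control, Cdk6, a kinase partner of the D cyclins, was -0.44 ± 0.18, with 1342.8, 1435.8 and 1491.8 against 2209.1, 1878.2 and 1713.5. Myc of the same list, which promotes entry into the cycle, was 0.52 ± 0.22, with 913.4, 1067.3 and 1290.0 against 632.4, 768.1 and 872.5. Cdk6 and Myc separated the genotypes in opposite directions, with a limma adjusted p of 0.77 for each.

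The same pools were compared in the wider lists. Klotho-deficient replicate 2 read higher than replicate 3 for 36 of 55 wider G2 and mitosis genes, 29 of 40 wider replication genes and 9 of 23 genes of G1 and E2F control (52.5% of all genes). Wild-type replicate 1 read higher than replicate 2 for 36 of 55, 22 of 40 and 14 of 23 (49% of all genes). The CHR element and the CCAAT box were both present in 53.8% of the windows of the wider G2 and mitosis genes, against 4.65% for wider replication genes, whose windows held an E2F site in 58.1%.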

How the data were processed

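The authors deposited linear array intensities, 1 per probe set and array. The submitters' processing notes name RMA, without a version; no label or note used here says how a linear scale arose. Per the labels' protocols, RNA was amplified with a NuGEN kit and labelled with biotin. The deposited intensities were turned to log2 here with no pseudocount and no further scaling. The arrays' annotation gave 1 gene to 34945 probe sets, several to 932 and none to 9160, with 64 controls; the gene identifiers of 34741 probe sets were found in the RefSeq table (GRCm38.p6). R 4.3.3 with limma 3.58.1 gave the comparison of genotypes, a two-sided moderated test by lmFit and eBayes (4 residual degrees of freedom, 2.1 prior ones), adjusted by Benjamini-Hochberg over 18193 genes at a threshold of 0.05. Precision is limited by having 3 arrays a genotype. A run on simulated data with planted changes checked the size of the estimates, and no rate of detection is given here. Every member is named; of the wider lists, up to 3 genes per direction with the smallest p and a mean above background could be named. The members and lists were chosen with earlier results of these data known. Alternatives were a replicate block, other scalings, an offset of 100, a filter on dim genes, other probe set summaries, a trended and robust prior, array weights, a covariate for Y-linked transcripts and each array left out; those for the order of pools were chosen after seeing the data. Figures used matplotlib 3.10.9 in Python 3.11.15.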

Additional observations from a re-analysis of the deposited data

How the results depend on the processing

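No member passed an adjusted p of 0.05 in limma under any of the 16 alternative settings run. With a replicate block the count of members called stayed at 0, no member changed sign, the smallest adjusted p was 0.725, and all genes gave 0 calls. The labels do not tie same-numbered pools to each other, so the numbers were not treated as pairs. Deviations of same-numbered arrays correlated at 0.17, -0.01 and 0.16, and those of differently numbered arrays at -0.20 to 0.07. Over all genes the count of calls was 0, and it became 1 with genes above background alone, 1 with an offset of 100, 2 with a trended and robust prior, 1 with array weights, and 0 to 1 when each array was left out (1 without klotho-deficient replicate 1); none was a member. The cause was not tested. The S phase median of -0.04 ranged from -0.17 (without wild-type replicate 2) to 0.07 with each array left out, the mitotic median from -0.08 to 0.28, and the G1 cyclin median of -0.78 from -0.92 to -0.28 (without klotho-deficient replicate 2). That last median was -0.37 with the mean of all probe sets and -0.53 with the second probe set. It was -0.60 with the Y-linked covariate, which leaves klotho-deficient replicate 1 alone against wild type.

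Signs turned with the second probe set for Ccne1 (0.33), Mcm5 (0.10), Rrm2 (-0.28), Top2a (0.07), Aurka (1.77, from wild-type readings below background), Aurkb (-0.13), Bub1b (-0.13), Cenpa (-0.27) and Tpx2 (-0.32). They turned with the mean of all probe sets for Aurka (0.81), Bub1b (-0.04), Kif11 (-0.28), Kif23 (0.34) and Tpx2 (-0.13), and with the Y-linked covariate for Ccne1 (0.14), Mcm3 (-0.11), Mcm4 (-0.07), Kif23 (0.13) and Tpx2 (-0.01). Quantile normalization turned Mcm6 (0.03), and array weights turned Pcna (0.03) and Rrm1 (0.03).

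With each array left out in turn, the differences that changed sign ranged as follows: Mcm3 from -0.19 to 0.26, Mcm4 from -0.05 to 0.36, Mcm5 from -0.32 to 0.17, Mcm6 from -0.10 to 0.00, Mcm7 from -0.28 to 0.03, Pcna from -0.17 to 0.10, Rrm1 from -0.17 to 0.15, Tyms from -0.57 to 0.03, Mki67 from -0.10 to 0.43, Top2a from -0.34 to 0.05, Ccna2 from -0.12 to 0.19, Ccnb2 from -0.17 to 0.30, Plk1 from -1.26 to 0.15, Aurka from -0.33 to 0.08, Aurkb from -0.05 to 0.61, Cenpa from -0.08 to 0.43, Kif11 from -0.20 to 0.34, Kif23 from -0.32 to 0.03, Tpx2 from -0.21 to 0.33, Prc1 from -0.24 to 0.08.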
